A study of Mus musculus with 7 samples.

Results

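Proliferating cells of PyMT tumors were 149 of the 3789 cells that passed filters in the 2 PyMT libraries, and of 12168 such cells in the 7 libraries of the study. They were selected on their own transcripts: a cell had to hold at least 1 UMI (unique molecular identifier, 1 captured mRNA molecule) of 3 or more of 8 cell cycle genes, called rule genes here. These were the cyclins Ccna2 and Ccnb1 with their kinase Cdk1, the spindle genes Tpx2, Nusap1 and Cenpf, and Ube2c and Top2a. Cells in which none of the 8 was detected are called marker-free and served as the comparison within the same library. They were paired cell by cell with the members on UMIs outside the 8 rule genes. The levels of the 8 rule genes are therefore given as a description only.

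The study profiled mammary tumor cells of 4 mouse models by droplet single-cell RNA sequencing, with replicate tumors A and B of PyMT, Neu and BRCA1-null and a single 4T1 tumor. The PyMT tumors grew from FF99WT cells, 1 cultured line derived from an MMTV-PyMT tumor whose FIP200 alleles were floxed but met no Cre, after injection into the mammary gland of wild-type FVB/NJ females, so both PyMT replicates are transplants of the same line. The MMTV promoter drives the polyoma middle T oncogene in mammary epithelium. Neu tumors arose spontaneously in MMTV-Neu mice (Neu A with floxed FIP200 and no Cre), and BRCA1-null tumors spontaneously in mice with K14-Cre and both Brca1 and Trp53 floxed (F/F), in which Cre deletes these genes in cells that use the keratin 14 promoter. No tumor was treated, and all were sorted as CD24+ cells that lacked CD31, CD45 and Ter119, which removes endothelial cells, leukocytes and erythroid cells.

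A dividing cell copies its DNA in S phase and separates the copies in mitosis, and each step has its own transcripts. E2F factors switch on replication genes before S phase, while the DREAM and MuvB complexes, with B-MYB and FOXM1, hold mitotic genes silent in resting cells and switch them on in G2. In the mammary gland, luminal cells divide during pregnancy, secrete milk in lactation and, at weaning, enter involution, in which STAT3 signaling, acute phase proteins and lysosomal enzymes accompany the loss of the secretory cells.

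The 2 classes of cell cycle gene also differed in the letters next to their start sites. The promoters below, from 120 bases before the annotated start to 30 after it (RefSeq, GRCm38.p6, 5′ to 3′ in the direction of transcription), are shown because they belong to 3 rule genes and to Cdca8, one of the mitotic genes with the largest increase. Capitals mark the cell cycle homology region letters TTTGAA or TTTAAA and the letters CCAAT, on either strand.

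Top2a (chr11:99024160-99024309, minus strand): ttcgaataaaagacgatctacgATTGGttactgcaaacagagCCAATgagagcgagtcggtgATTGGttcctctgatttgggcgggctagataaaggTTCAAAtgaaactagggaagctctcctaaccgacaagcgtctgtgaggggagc
Cdk1 (chr10:69352883-69353032, minus strand): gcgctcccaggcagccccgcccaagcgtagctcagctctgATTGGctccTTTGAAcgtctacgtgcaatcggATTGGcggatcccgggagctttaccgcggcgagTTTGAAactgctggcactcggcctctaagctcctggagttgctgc
Ube2c (chr2:164769809-164769958, plus strand): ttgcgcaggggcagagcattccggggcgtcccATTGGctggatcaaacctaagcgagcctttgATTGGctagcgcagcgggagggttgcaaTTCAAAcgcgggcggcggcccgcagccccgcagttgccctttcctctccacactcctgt
Cdca8 (chr4:124936888-124937037, minus strand): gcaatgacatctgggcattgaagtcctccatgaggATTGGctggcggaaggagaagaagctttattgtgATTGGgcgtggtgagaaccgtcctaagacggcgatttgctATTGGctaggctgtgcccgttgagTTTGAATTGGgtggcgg

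Of the 41 mitotic genes listed, 36 had a promoter in the table used, and 30 of these held TTTGAA or TTTAAA in the 300 bases around the start, 83.3%, against 22.4% of the 8192 tested genes with a promoter and 30.6% of all 27025 genes in the table. The letters CCAAT stood in 28 of the 36, against 43.3% of the tested genes and 41.1% of all. Of the 8 rule genes 6 had an entry, and 5 of them held each motif, the exception being Nusap1. Birc5 held the homology region letters without CCAAT, and Pttg1 and Knstrn, mitotic genes that are described again below, held neither motif. A match describes letters and is not a test of binding.

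Part of the replication genes carried another motif. The promoters of Mcm3, a subunit of the replicative helicase, and Hells, a chromatin remodeler of S phase, are shown for the E2F letters TTTCGCGC, TTTGGCGC, TTTCCCGC or TTTGCCGC, which are in capitals together with CCAAT.

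Mcm3 (chr1:20820283-20820432, minus strand): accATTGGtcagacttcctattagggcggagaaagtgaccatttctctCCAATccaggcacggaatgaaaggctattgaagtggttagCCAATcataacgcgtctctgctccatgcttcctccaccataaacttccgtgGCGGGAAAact
Hells (chr19:38930870-38931019, plus strand): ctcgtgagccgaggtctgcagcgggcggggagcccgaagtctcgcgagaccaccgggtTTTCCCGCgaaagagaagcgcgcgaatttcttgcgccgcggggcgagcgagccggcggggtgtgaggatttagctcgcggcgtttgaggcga

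E2F letters were present in 12 of 26 replication genes with a promoter, 46.2%, against 4.86% of the tested genes and 2.60% of all genes. Only 1 of 36 mitotic genes held them, 2.78%. The homology region letters were found in 8 of the 26 replication genes, 30.8%.

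Members were far rarer in tumor A than in tumor B. PyMT A held 26 among 1947 cells, 1.34% (95% exact Clopper-Pearson interval 0.874% to 1.95%), and PyMT B held 123 among 1842, 6.68% (5.58% to 7.92%). The intervals did not overlap, but they cover counting error only, and 2 tumors allow no test. PyMT B was sequenced more deeply, with a median of 19410.5 UMIs per cell against 9241 in PyMT A, and a deeper cell shows more rule genes. When each cell was thinned to 3000 UMIs, 5 of 1849 cells of PyMT A, 0.270% (0.0879% to 0.630%), and 37 of 1794 cells of PyMT B, 2.06% (1.46% to 2.83%), still met the rule, with 98 and 48 shallower cells left out. At full depth the share was 2.12% and 5.16% in Neu A and B, 37.6% and 13.2% in BRCA1-null A and B, and 20.0% in 4T1.

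**Figure D1:**
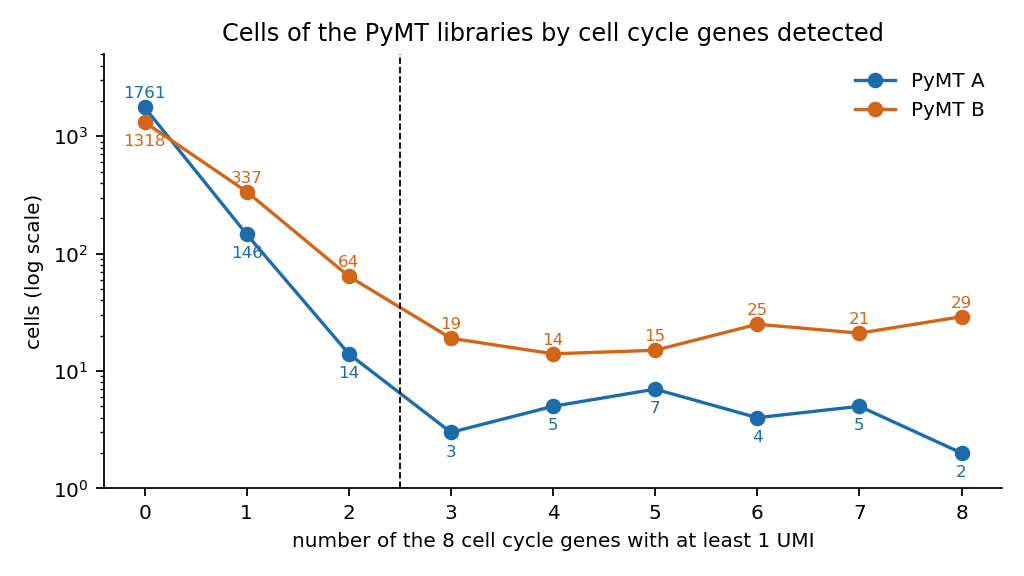
Number of cells (y axis, log scale) by how many of the 8 rule genes had at least 1 UMI (x axis) in PyMT A and PyMT B, with the count beside each point. The dashed line is the limit of the rule, which 26 cells of PyMT A and 123 cells of PyMT B passed.

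Most cells had no rule gene at all, 1761 in PyMT A and 1318 in PyMT B. The counts fell to 3 cells with exactly 3 rule genes in PyMT A and 19 in PyMT B. In PyMT B they were 14 and 15 at 4 and 5 rule genes and rose to 29 cells that held all 8. Just outside the limit, 14 cells of PyMT A and 64 of PyMT B held exactly 2. The summed level of the other mitotic genes was 1697 CPM (counts per 1000000 UMIs) in those 14 cells and 2115 CPM in the 3 cells just inside, and 985 CPM in the 64 cells and 1258 CPM in the 19 cells of PyMT B. The limit therefore runs through a gradient of cell cycle transcripts.

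Among the rule genes, Ube2c, the ubiquitin-conjugating enzyme of the anaphase-promoting complex, was detected in 25 of 26 members in PyMT A and 110 of 123 in PyMT B. Top2a, the topoisomerase that untangles sister chromatids, was detected in 22 and 106 members, and Cdk1, the kinase of mitotic entry, in 22 and 102. Ccnb1, the cyclin partner of Cdk1, was the least often detected in PyMT A, in 8 of 26 members, and was found in 66 of 123 in PyMT B. In summed counts Top2a stood at 121 CPM in PyMT A and 165 CPM in PyMT B, Cdk1 at 100.5 and 140.1 CPM, and Cenpf, a kinetochore protein, at 70.3 and 78.0 CPM.

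The other marker given for these cells, Birc5 (survivin, a subunit of the chromosomal passenger complex), played no part in the rule. It stood at 877 CPM in the members of PyMT A and 740.0 CPM in those of PyMT B, against 0 CPM and 11.4 CPM in the matched marker-free cells. The levels of Top2a, Cdk1 and Cenpf were set by the selection. Birc5 was high in both libraries, but it is a mitotic gene that moves with the rule genes. Its level is therefore not separate evidence for the name.

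They were also epithelial. Summed over 6 luminal markers (Epcam, Krt8, Krt18, Krt7, Cdh1 and Cldn3), the level was 10649.8 CPM in PyMT A and 11393 CPM in PyMT B. The markers of immune cells, endothelium, fibroblasts, pericytes and erythroid cells summed to between 0 and 17.6 CPM in each library's members, and between 0 and 29.4 CPM in the matched marker-free cells, over those of their genes that passed the filter on low counts. Among those that did not pass it, Ptprc (CD45), Tyrobp, Csf1r, Cdh5, Cldn5 and all 4 globin genes had 0 UMIs in the compared cells of both libraries. Cd52, another leukocyte gene, had 24 UMIs in the members and 19 in the marker-free cells of PyMT B and 0 in PyMT A. Pecam1 (CD31) had 3 and 5 UMIs in the members and marker-free cells of PyMT B, and 0 and 1 in PyMT A. Kdr had 1 and 1 in PyMT B and 0 in PyMT A. In PyMT B, Cspg4 had 1 UMI in the members and Cd3e 1 in the marker-free cells. The 6 tested basal markers summed to 126 CPM in PyMT A, of which Krt14 gave 108 CPM in 25 cells, and to 44.9 CPM in PyMT B, against 21.4 and 53.8 CPM in the marker-free cells. The part of these markers in the results was not tested.

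Depth and mitochondrial share were alike in the compared groups. After matching, 25 pairs of cells in PyMT A had median totals of 15445 and 15408 UMIs (proliferating and marker-free), and 123 pairs in PyMT B had 33216 and 33001. Median mitochondrial shares were 4.84% and 4.85% in PyMT A and 4.49% and 4.72% in PyMT B. Without matching the members were much deeper than marker-free cells, at 15766 against 9056 UMIs in PyMT A and 33216 against 17911 in PyMT B. Scrublet called none of the 149 members a doublet, and 1 of the 25 matched marker-free cells of PyMT A. Median doublet scores were lower in the compared members, at 0.0196 against 0.0455 in PyMT A and 0.0329 against 0.0431 in PyMT B. In PyMT B, 1 member had a barcode sequence that another library also held, among 118 sequences found in more than 1 library.

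The comparison asked which transcripts differ between cells with and without detected rule genes in the same tumor. Marker-free cells are not shown to be non-dividing, since some of them held several replication UMIs. UMIs were summed over the cells of each group, giving 394360 and 390403 UMIs in PyMT A and 4041867 and 3996597 in PyMT B, and edgeR's quasi-likelihood test was fitted to these sums together with those of the Neu and BRCA1-null tumors, with the library as block and an effect per tumor type. Of 10478 genes tested, 525 were higher in the proliferating cells of PyMT tumors, 5.01%, and 319 were lower, 3.04% (adjusted p under 0.05). The median log2 fold change of all tested genes was -0.06. With total UMIs in place of TMM scaling the split was 652 higher and 229 lower, and the median 0.02.

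The counts rest mainly on PyMT B. They were 380 higher and 102 lower without PyMT A and 53 higher and 22 lower without PyMT B. Of the 525 genes, 509 could be tested without PyMT B and 501 of those kept a positive value, and 308 of 314 of the lower genes kept a negative one. The spread is shared with the other tumors, and without BRCA1-null A the counts were 868 and 780, without BRCA1-null B 797 and 623, and without Neu B 410 and 179.

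**Figure D2:**
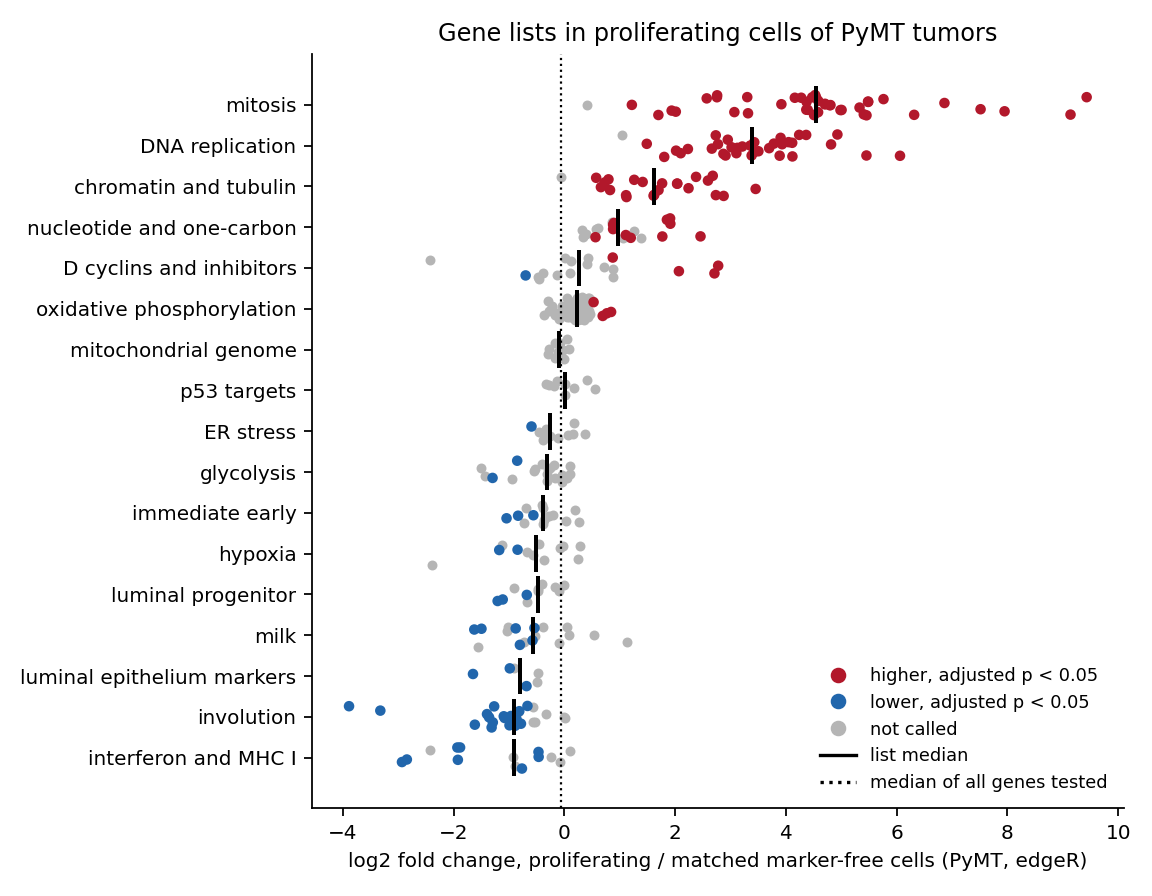
Log2 fold change between proliferating and matched marker-free cells of the PyMT tumors (x axis, edgeR) for each tested gene of 17 gene lists (y axis), 1 point per gene. Red and blue points passed an adjusted p of 0.05, black bars are list medians and the dotted line is the median of all tested genes, so the lists of mitosis and replication lie to the right and those of involution and interferon response to the left.

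Mitotic genes outside the rule rose almost without exception: 40 of 41 were higher and none lower, against 5.01% of all tested genes that were higher. Since the rule selects on mitotic genes, this shows that the list moves with the rule genes rather than being separate evidence of division. The median log2 fold change was 4.55, or 4.47 with 5 genes that had no UMI in the marker-free cells of either library set at the bound that 3 UMIs over the group allow. Pclaf, the PCNA-associated factor, is not one of the 41 but was among the largest increases. It rose from 2.68 to 558 CPM in PyMT A and from 9.65 to 439 CPM in PyMT B (log2 fold change 5.73, SE 0.26, adjusted p = 1.25e-09). Mki67, the antigen used to stain dividing cells, went from 0 to 87.9 CPM in PyMT A and from 3.22 to 134 CPM in PyMT B (adjusted p = 3.22e-07). Pbk, Racgap1 and Cdca8, a mitotic kinase, a regulator of cytokinesis and a passenger complex subunit, were among the 8 largest increases, at 60.3, 55.3 and 121 CPM in the members of PyMT A and 78.0, 47.5 and 126 CPM in those of PyMT B. In each library the members' sum was above that of the marker-free cells for all 41 mitotic genes, while single cells of the groups overlapped.

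Genes of DNA replication rose as consistently, with 34 of 35 higher, none lower and a median of 3.38, against the same 5.01%. Rrm2, the regulated subunit of ribonucleotide reductase, stood at 62.8 against 2.68 CPM in PyMT A and 61.0 against 1.17 CPM in PyMT B (log2 fold change 5.45, SE 0.41). Lig1, the ligase that joins Okazaki fragments, stood at 118 against 5.35 CPM and 123 against 7.31 CPM (4.11, SE 0.28). Mcm3 and Hells, whose promoters are printed above, rose by 4.12 (SE 0.49) and 3.38 (SE 0.33) on the log2 scale. Hist1h2ap, a replication-dependent histone gene from a family of near-identical copies, rose by 5.07 (SE 0.30), and its reads cannot be assigned to 1 copy with certainty. By contrast Hist1h2bc, another member of that cluster, was among the largest decreases, from 578 to 113 CPM in PyMT A and from 497 to 150.0 CPM in PyMT B (-1.96, SE 0.22, adjusted p = 1.50e-05).

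Within single members the balance varied. After thinning to 3000 UMIs, the 25 members of PyMT A held a median of 5 UMIs of replication genes (0 to 12) and 12 of mitotic genes (2 to 22), and the 123 of PyMT B held 5 (0 to 24) and 10 (0 to 27). Mitotic UMIs outnumbered replication UMIs in 21 of 25 and 85 of 123 members, and replication UMIs were in the majority in 3 and 29. The matched marker-free cells held medians of 0 and 1 replication UMIs and 1 and 2 mitotic UMIs.

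Phase calls by cyclone, a classifier that compares pairs of genes, placed few members outside G1. With all pairs that contain a rule gene removed, 6 of 26 members of PyMT A, 23.1% (95% exact interval 8.97% to 43.6%), and 20 of 123 of PyMT B, 16.3% (10.2% to 24.0%), were called S or G2M, and the rest G1. No matched marker-free cell was, of 25 and 123, with exact upper limits of 13.7% and 2.95%. On thinned cells the calls were 6 of 25 and 18 of 123 members against 0 of 24 and 3 of 123 marker-free cells. The classifier and the transcript counts thus gave different shares of cycling cells, and whether free RNA moves these calls was not tested.

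Chromatin proteins and tubulins, which a cell needs to pack and move its chromosomes, rose in 22 of 23 cases (median 1.62). The share of all tested genes that rose was 5.01%. Hmgb2, a chromatin protein of dividing cells, rose from 42.8 to 525 CPM in PyMT A and from 52.95 to 556 CPM in PyMT B (3.45, SE 0.19, adjusted p = 6.20e-09). Tuba1b rose from 85.6 to 791 CPM and from 124 to 806 CPM (2.88, SE 0.18), and the histone variant gene H2afz from 299.8 to 2507 CPM and from 404 to 2099.7 CPM (2.68, SE 0.16). The exception was the tubulin gene Tuba1c, at 231 against 310.5 CPM and 477 against 424 CPM (-0.06, SE 0.18, adjusted p = 0.920).

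The regulators of G1 moved separately. Of 18 tested D cyclins, partner kinases, inhibitors and pocket proteins, 4 were higher (E2f1, Rbl1, Cdkn2d and Cdk4) and 1, Ccnd1, was lower. Of all tested genes 5.01% were higher and 3.04% lower, and the single lower gene is near that share. The median of the list was 0.26, or 0.42 with 1 gene at its bound. Ccnd1, the cyclin that relays growth signals to the cycle, fell from 270.3 to 131 CPM in PyMT A and from 149 to 106 CPM in PyMT B (-0.70, SE 0.18, adjusted p = 0.0194). Its partner kinase Cdk4 rose from 155 to 284 CPM and from 147 to 270.5 CPM (0.87, SE 0.16, adjusted p = 0.00169). Cdkn1a, the inhibitor p21, stood at 796 against 723 CPM and 853 against 803 CPM (0.11, SE 0.19), and none of 9 tested p53 targets passed the test (median 0.01).

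Involution and acute phase genes fell. Of 25 tested, 23 were lower in both libraries, against 3504 of all 10478 tested genes. The test called 17 lower and none higher, against 3.04% of all tested genes that were lower, and the median was -0.90. The summed level of the 25 genes fell from 47171 to 21737 CPM in PyMT A and from 36811 to 21908 CPM in PyMT B. The members of both tumors thus ended at a similar level. The count was 6 without PyMT A and 3 without PyMT B, with medians of -0.77 and -1.25.

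Among them Lcn2, the siderophore-binding acute phase protein lipocalin 2, fell from 15714 to 8665 CPM in PyMT A and from 15332 to 9364 CPM in PyMT B (-0.78, SE 0.13, adjusted p = 0.000662). Spp1 (osteopontin), a secreted adhesion protein, fell from 14707 to 5781 CPM and from 9922 to 5641 CPM (-1.08, SE 0.29, adjusted p = 0.0277). Igfbp5, the binding protein that withholds IGF1 from the involuting gland, fell from 1194 to 457 CPM and from 1778 to 788 CPM (-1.27, SE 0.15, adjusted p = 2.10e-05). The transcription factor gene Cebpd, a STAT3 target, fell by 1.36 (SE 0.19) and Stat3 itself by 0.81 (SE 0.19) on the log2 scale. Each of these 5 genes was lower in the proliferating cells of both libraries.

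The genes that the study used to name PyMT sub-clusters, which were chosen on these same tumors, belonged to this group in part. Csf3, the granulocyte colony-stimulating factor, fell from 1804 to 1105 CPM in PyMT A and from 358 to 177 CPM in PyMT B (-0.86, SE 0.16, adjusted p = 0.00158), and the marker-free cells of PyMT B were lower than the members of PyMT A. Mfge8, the bridge by which phagocytes recognize dying cells, fell from 626 to 249 CPM and from 777 to 462 CPM (-0.99, SE 0.21, adjusted p = 0.00472). Ltf (lactotransferrin) was at 3015 against 7170.4 CPM and 3279.9 against 4871 CPM, which did not pass (-0.90, SE 0.28, adjusted p = 0.0603). Rarer members of the list moved further, and Cxcl2, a neutrophil chemokine, went from 131 to 5.02 CPM and from 30.1 to 3.98 CPM (-3.32, SE 0.76, adjusted p = 0.00977).

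**Figure D3:**
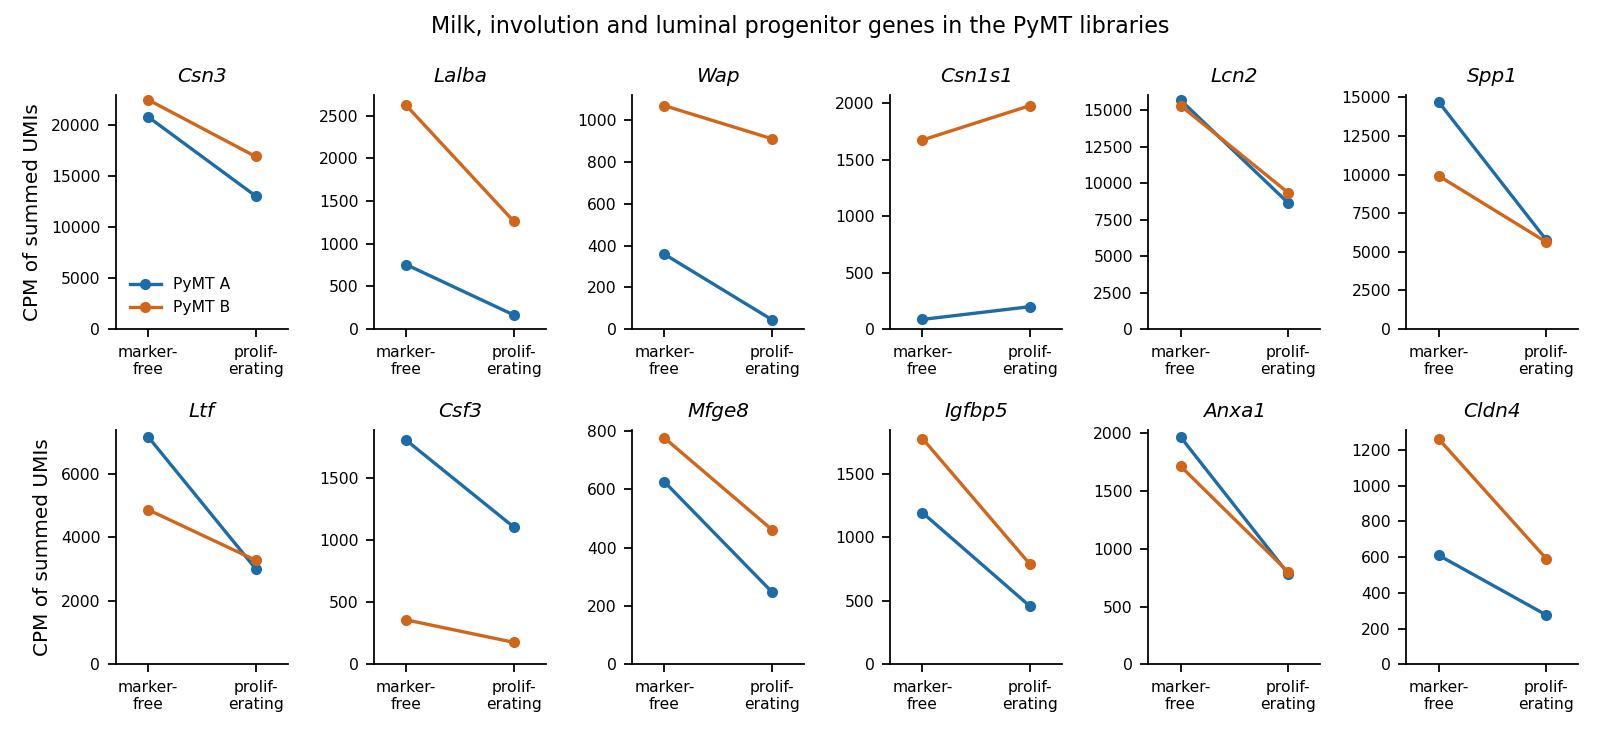
Levels (y axis, CPM of summed UMIs) of 12 milk, involution and luminal progenitor genes in matched marker-free and proliferating cells (x axis), with 1 line per PyMT library and no error bar, since each point is 1 sum of 25 or 123 cells. Every line falls except those of Csn1s1, which rises in both libraries.

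Milk genes did not move as one. Of 17 tested, 6 were lower and none higher (median -0.58), against 3.04% of all tested genes that were lower, and the count was 1 without PyMT A and 3 without PyMT B. Csn3 (kappa-casein), the most abundant of them in counts, fell from 20796 to 13047 CPM in PyMT A and from 22472 to 16912 CPM in PyMT B (-0.54, SE 0.10, adjusted p = 0.00232). Lalba, the lactose synthase subunit alpha-lactalbumin, fell from 755 to 166 CPM and from 2618 to 1263 CPM (-1.50, SE 0.26, adjusted p = 0.000995), and Plin2, which coats lipid droplets, from 573 to 266 CPM and from 736 to 489.7 CPM (-0.80, SE 0.16). These 3 genes were lower in the members of both libraries.

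Other caseins showed no such fall. Csn1s1 (alpha-S1-casein) was at 198 against 85.6 CPM in PyMT A and 1979.7 against 1675 CPM in PyMT B, which did not pass (0.54, SE 0.21, adjusted p = 0.158). Csn2 (beta-casein) was at 2.51 against 10.7 CPM in PyMT A but at 3805 against 3894 CPM in PyMT B (-0.10, SE 0.52, adjusted p = 0.979), so the tumors differed far more than the cell groups. Wap (whey acidic protein) was at 45.2 against 359 CPM and 911 against 1069.6 CPM (-1.04, SE 0.35, adjusted p = 0.0947). The fall of Lalba was smaller against all marker-free cells, at -0.67 on the log2 scale, which did not pass.

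Markers of the luminal lineage were also lower, with 3 of 6 called, against 3.04% of all tested genes (median -0.79). Krt7, a luminal keratin, fell from 672 to 214 CPM in PyMT A and from 657 to 209 CPM in PyMT B (-1.65, SE 0.31, adjusted p = 0.00208), Cldn3, a tight junction protein, fell by 0.99 (SE 0.16) and Epcam by 0.68 (SE 0.17). Against the same share, 3 of 11 tested luminal progenitor genes were lower (median -0.48): Wfdc18, the annexin gene Anxa1, from 1969.9 to 786 CPM and from 1717 to 801 CPM (-1.21, SE 0.20, adjusted p = 0.000731), and the tight junction gene Cldn4, from 610.2 to 276 CPM and from 1262 to 592 CPM (-1.11, SE 0.31, adjusted p = 0.0308). Aldh1a3, the retinaldehyde dehydrogenase of luminal progenitors, stood at 231 against 236 CPM and 113 against 126 CPM (-0.10, SE 0.20, adjusted p = 0.862), and Elf5, the alveolar transcription factor, at 72.9 against 85.6 CPM and 113 against 126 CPM (-0.18, SE 0.20). Neither of these last 2 passed the test, nor did the luminal keratins Krt8 (-0.48, adjusted p = 0.429) and Krt18 (-0.90, adjusted p = 0.0737).

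Interferon response and MHC class I genes were lower in 8 of 14 cases, against 3.04% of all tested genes (median -0.92, or -0.83 with 1 gene at its bound). Isg15, a ubiquitin-like interferon product, fell from 169 to 30.1 CPM in PyMT A and from 561 to 163 CPM in PyMT B (-1.93, SE 0.27, adjusted p = 0.000109), and Irf7, the factor that amplifies interferon induction, from 190.0 to 45.2 CPM and from 362 to 103 CPM (-1.88, SE 0.22). B2m, the common light chain of MHC class I, fell from 3584 to 2198 CPM and from 5698 to 3217 CPM (-0.77, SE 0.14). Rsad2 (viperin) had the largest decrease of all by the rule used, but it rests on PyMT B, where it fell from 101 to 5.31 CPM, while PyMT A stood at 2.68 and 2.51 CPM, or 1 UMI in each group. Without PyMT B none of the 14 passed, and without PyMT A 6 did. Of 5 MHC class II genes 3 could be tested and none passed, with Cd74, the invariant chain, at 274 against 273 CPM in PyMT A and 279 against 647 CPM in PyMT B.

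Metabolic genes split by pathway. Enzymes of serine, one-carbon and nucleotide synthesis, which supply DNA precursors, were higher in 11 of 20 cases and lower in none (median 0.98). Of all tested genes 5.01% were higher. Dctpp1, a nucleotide pool hydrolase, rose from 61.6 to 226 CPM in PyMT A and from 86.0 to 284 CPM in PyMT B (1.77, SE 0.18, adjusted p = 4.05e-06). Shmt1, the cytosolic serine hydroxymethyltransferase, rose from 8.03 to 20.1 CPM and from 4.97 to 31.8 CPM (2.46, SE 0.37, adjusted p = 0.000301). Its value turned negative after thinning to 3000 UMIs per cell, which left 5 and 37 members, compared without matching. Impdh2, the committed enzyme of guanine nucleotide synthesis, rose from 134 to 261 CPM and from 111 to 197 CPM (0.88, SE 0.17). The sums of the list were 1794 against 1022 CPM in PyMT A and 2084 against 1153 CPM in PyMT B.

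Nuclear genes of oxidative phosphorylation moved little but mostly upward. Only 4 of 77 passed, all higher, near the 5.01% of all tested genes (median 0.22). Of the 77 genes, 57 were higher in both libraries, against 2744 of all 10478 tested genes. Those 4 were Sdhd, Ndufab1, Ndufa5 and Cycs, of complex II, complex I and the cytochrome c pool, with log2 fold changes of 0.84 (SE 0.21), 0.77 (SE 0.16), 0.69 (SE 0.16) and 0.53 (SE 0.14). With total UMIs as the scale 13 passed. None of the 13 protein genes of the mitochondrial genome passed (median -0.10). In both libraries 10 of them were lower, against 3504 of all 10478 tested genes.

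Glycolysis did not rise. Of 19 enzymes and transporters tested 2 were lower and none higher (median -0.31), namely the aldolases Aldoc, from 937 to 249 CPM in PyMT A and from 709 to 396 CPM in PyMT B (-1.30, SE 0.20, adjusted p = 0.000317), and Aldoa, from 1443 to 774 CPM and from 1605 to 914 CPM (-0.85, SE 0.20, adjusted p = 0.0116). Ldha, lactate dehydrogenase A, stood at 1658 against 1766 CPM and 1745 against 1754 CPM (-0.05, SE 0.13). Of 12 hypoxia genes 2 were lower, Egln3 and Ndrg1 (median -0.51, or -0.41 with 1 gene at its bound), and of 18 lipid synthesis genes Idi1 was higher and Scd1, the stearoyl-CoA desaturase, lower (median 0.20, or 0.06 with 1 gene at its bound). Of all tested genes 3.04% were lower and 5.01% higher, and the single called genes of the lipid list are near those shares.

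The remaining lists differed from each other, and of all tested genes 3.04% were lower. Of 15 immediate early genes 3 were lower (Dusp1, Junb and Ier3, median -0.38), while Fos stood at 95.5 against 161 CPM and 124 against 204 CPM without passing. Of 11 endoplasmic reticulum folding and stress genes 1 was lower, Xbp1 (median -0.26), and of 77 tested ribosomal protein genes none passed in either direction (median 0.01). Of the remaining large decreases, Cst3 (cystatin C, a cathepsin inhibitor) went from 1807 to 148 CPM in PyMT A and from 1204 to 717 CPM in PyMT B (-1.92, SE 0.39), and without PyMT A its value was -0.72 and did not pass. Pgf, the placental growth factor, went from 64.2 to 2.51 CPM and from 50.9 to 13.5 CPM (-2.24, SE 0.42).

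**Figure D4:**
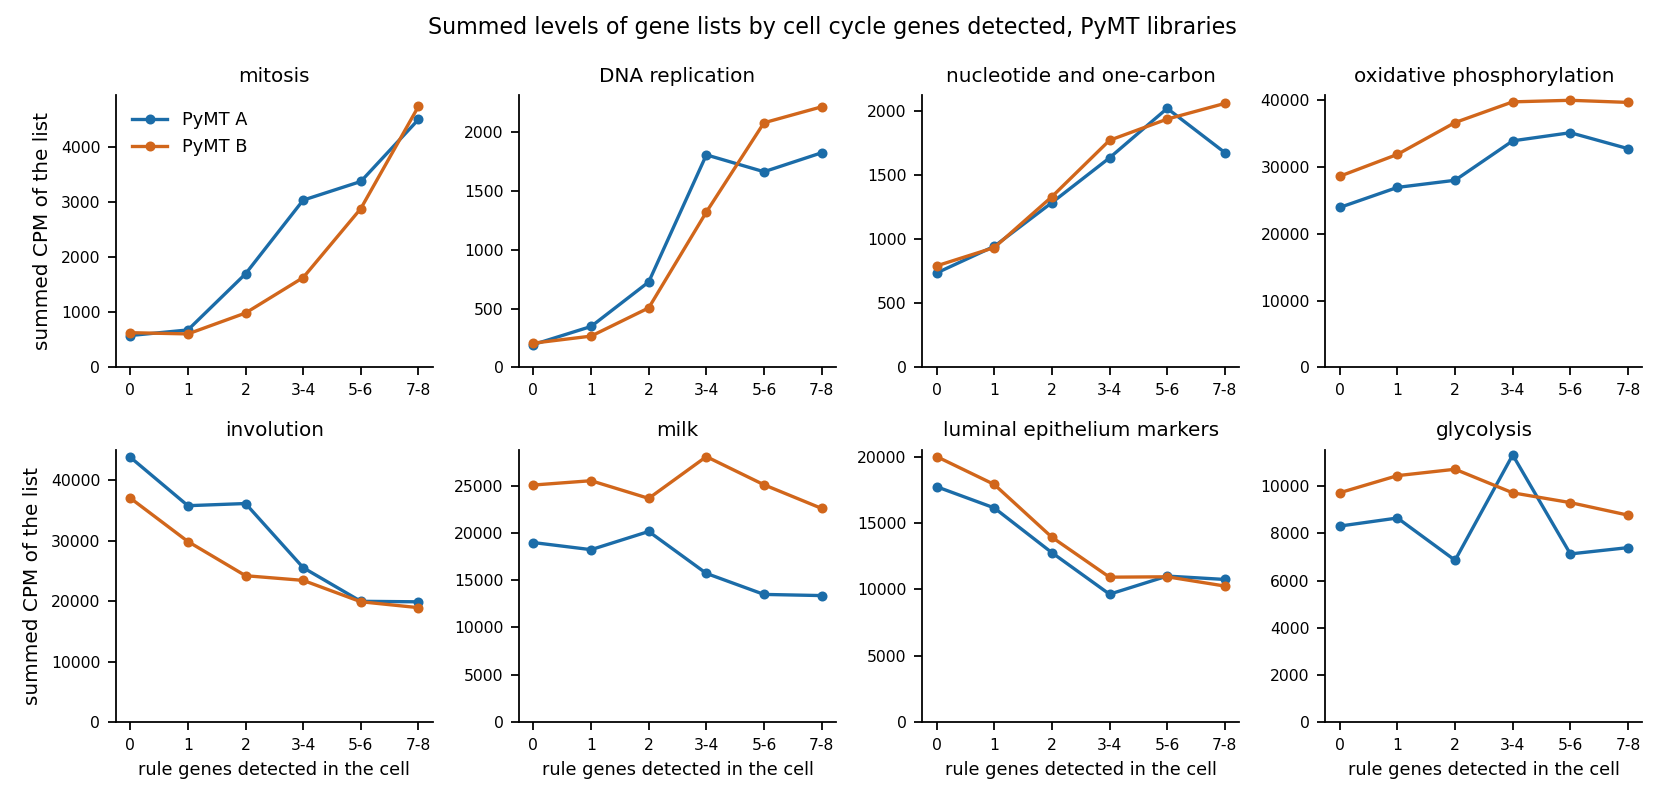
Summed level of 8 gene lists (y axis, CPM of the cells in the group, starting at 0) by the number of rule genes detected in the cell (x axis), in all PyMT cells without depth matching, 1 line per library. The involution list falls from 43818 to 19886 CPM in PyMT A and from 37059 to 18918 CPM in PyMT B between no rule gene and 7 or 8. Over the same range the milk list of PyMT A goes from 18972 to 13365 CPM, while that of PyMT B stays between 22583 and 28059 CPM.

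The same lists formed gradients over all cells. From cells with no rule gene to cells with 7 or 8, the oxidative phosphorylation list went from 23955 to 32773 CPM in PyMT A and from 28636 to 39707 CPM in PyMT B, with 35161 and 40023 CPM at 5 or 6. The luminal markers went from 17725 to 10737 CPM and from 19995 to 10239.6 CPM. In PyMT A the milk list went from 18972 CPM in cells with no rule gene to 13365 CPM in those with 7 or 8. In PyMT B it stood at 25056 and 22583 CPM. These levels are plain CPM, without the TMM scaling used for the matched groups, so the scales differ. Cells with 1 rule gene already had lower involution levels, 35793 and 29866 CPM. The groups differ in depth, with medians from 9056 to 18429 UMIs in PyMT A and 17911 to 35759 in PyMT B, and these levels are a description with no test.

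The effect in PyMT was also set against those in Neu and BRCA1-null tumors. The PyMT tumors were transplants of a cultured line and the others arose spontaneously, so model and transplantation cannot be told apart. The BRCA1-null effects rest on 34 of 92 members in A and 217 of 275 in B. How many genes differed between models varied widely with the settings, as given at the end. Of the 10478 genes, 8 differed in effect between PyMT and Neu, 0.0764%, and 1 between PyMT and BRCA1-null, 0.00954%. Pttg1 (securin), which holds sister chromatids together until anaphase, rose less in PyMT, from 26.8 to 108 CPM and from 29.0 to 87.9 CPM, than in Neu, from 1.21 to 142 CPM and from 11.9 to 239 CPM (difference of log2 fold changes -2.94, SE 0.43, adjusted p = 0.0143). Knstrn, a spindle protein (-3.42, SE 0.57, adjusted p = 0.0214), and the tubulin gene Tubb5 (-1.28, SE 0.21, adjusted p = 0.0196) also rose less in PyMT. Tubb4b, another tubulin gene, was at 377 against 299.8 CPM and 522 against 379 CPM in PyMT, which did not pass, and at 952 against 288 CPM and 889 against 191 CPM in Neu (-1.57, SE 0.22, adjusted p = 0.0143). For Pttg1 and Knstrn the lower fold went with higher levels in marker-free cells, 10.7 and 7.90 CPM of Knstrn in PyMT against 2.42 and 1.23 CPM in Neu.

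Fabp5, a fatty acid-binding protein, differed in the other direction. It rose from 190.0 to 435 CPM and from 364 to 701 CPM in PyMT (1.04, SE 0.19, adjusted p = 0.00172), and was at 492 against 798 CPM and 714 against 799 CPM in the proliferating and marker-free cells of Neu (difference 1.46, SE 0.26, adjusted p = 0.0422). Car2 (carbonic anhydrase 2) stood at 759 against 934 CPM and 701 against 672 CPM in PyMT and was higher in proliferating cells of Neu, at 385 against 167 CPM and 282 against 89.9 CPM. None of the milk genes differed in effect between PyMT and either model, and of the involution genes 1 did, Saa1, a gene with close paralogs. It was at 0 against 10.7 CPM (0 and 4 UMIs) and 1.86 against 26.9 CPM (7 and 92 UMIs) in PyMT. In Neu it was at 1.08 against 0 CPM and 5.14 against 1.64 CPM, so the difference rests on low counts. For the other involution genes the test found no difference between models, with list medians of -0.90 in PyMT, -0.44 in Neu and -1.22 in BRCA1-null.

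**Figure D5:**
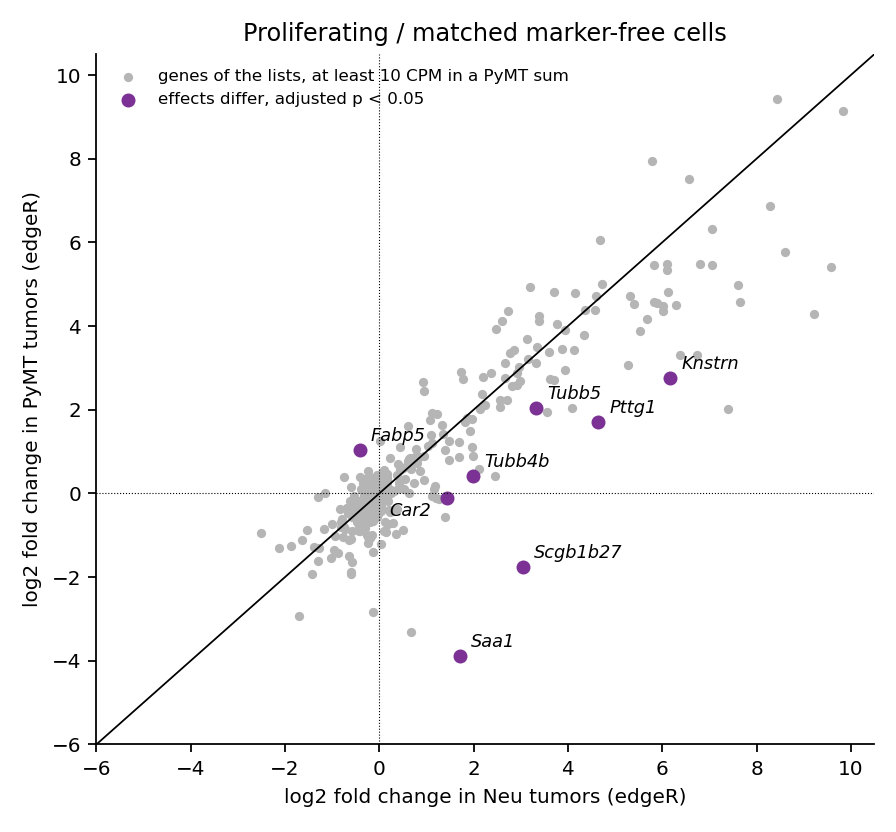
Log2 fold change between proliferating and matched marker-free cells in Neu tumors (x axis) and PyMT tumors (y axis) for genes of the lists with at least 10 CPM in a PyMT sum, 1 grey point per gene, with the line of equal change. The 8 purple genes differed between the models at an adjusted p of 0.05, and 7 of them lie below the line while Fabp5 lies above it.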

How the data were processed

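Single-cell suspensions of 7 tumors were run on the 10x Genomics 3′ platform (version 2 chemistry). Per the labels, the authors used Cell Ranger 2.2.0 for the A replicates and 4T1 and 3.0.2 for the B replicates, with STAR and mm10, and deposited unnormalized UMI counts per gene and cell for called barcodes. A and B replicates were sequenced in separate batches, so replicate and batch cannot be told apart.

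Cells with at least 1000 UMIs, 500 genes and under 20% mitochondrial UMIs were kept. Members and gene lists were chosen with earlier results of these data known. Members were paired with 1 marker-free cell of their library within 0.2 log2 units of UMIs, rule gene UMIs not counted. Those without such a cell stayed out. The comparison kept 25 of 26 members in PyMT A and 123 of 123 in PyMT B. It kept 49 of 49 in Neu A, 99 of 103 in Neu B, 34 of 92 in BRCA1-null A and 217 of 275 in BRCA1-null B. In BRCA1-null A the compared members had a median of 16232 UMIs, against 28800.5 for all members. Counts were summed per library and group, giving 12 sums (3 residual degrees of freedom), filtered with filterByExpr and fitted in edgeR 4.0.16 (TMM, quasi-likelihood, Benjamini-Hochberg over 10478 genes), with R 4.3.3, limma 3.58.1, DESeq2 1.42.0, scran 1.30.0 and scanpy 1.11.5 for other steps. Rule genes were left out of the tests. SE is the absolute log2 fold change divided by the square root of the F statistic of its test. CPM are TMM-scaled except where levels are given by number of rule genes. Library as block pairs the groups, since both come from the same tumor. P-values rest on how the difference between the cell groups varied between replicates A and B. This variation was pooled over the models and moderated across genes (13.7 prior degrees of freedom). Both PyMT libraries come from 1 line, so the p-values do not measure the spread between PyMT tumors. Counting intervals cover counting error only. The 7 libraries held 5578911 to 37693300 UMIs in kept cells.

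The fit was tested on simulated counts with known fold changes. Named genes were the rule genes and Birc5, genes the study names for PyMT sub-clusters, up to 8 largest changes per direction with at least 50 CPM, the 3 smallest adjusted p of each list and of each contrast with another model. Other genes named were chosen after their values were seen. Alternatives were other scaling, test, filter, samples, rule limits, depth, doublet and quality settings and leaving out each library.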

Additional observations from a re-analysis of the deposited data

Results flagged for a closer look

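In 9 genes the difference between proliferating and marker-free cells itself differed between PyMT and another model (edgeR interaction contrast, adjusted p under 0.05). As PyMT minus Neu on the log2 scale, the values were -1.57 for Tubb4b, -2.94 for Pttg1, -1.54 for Car2, -4.81 for Scgb1b27, -5.60 for Saa1, -1.28 for Tubb5, -3.42 for Knstrn and 1.46 for Fabp5. Scgb1b27, a secretoglobin gene with close relatives, was at 0 CPM in both cell groups of PyMT A. Against BRCA1-null the one gene was Ccl7, a chemokine, with 6.39, at 2.51 against 5.35 CPM in PyMT A and 7.43 against 0.293 CPM in PyMT B, so the PyMT libraries moved in opposite directions. No cause was tested.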

How the results depend on the processing

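The 525 higher and 319 lower genes became 913 and 579 in the PyMT libraries alone, and 167 and 1 with no replicate block, which ignores the pairing of both cell groups within a tumor. Thinning to 3000 UMIs per cell gave 141 higher and 229 lower genes, with a median of -0.38 over all genes. Members were then chosen anew on the thinned counts and compared without matching. They were 5 cells in PyMT A and 37 in PyMT B, against 1771 and 1614 marker-free cells. With all marker-free cells 716 genes were higher and 1022 lower, so both settings turned the balance of the calls. The lower count was 119 with the DESeq2 Wald test, 479 with up to 3 matched cells and 190 with 2 or more rule genes. Leaving out each library in turn gave 53 to 868 higher and 22 to 780 lower genes.

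The 8 genes that differed between PyMT and Neu became 74 with no filter on low counts, 0 with no replicate block, 17 with up to 3 matched cells, 20 against all marker-free cells, 16 after thinning, 13 without shared barcodes and shallow cells, 13 with a 10% mitochondrial limit, and 1 to 168 with a library left out. The single gene for BRCA1-null became 22 with DESeq2, 56 with no filter, 0 with no replicate block, 9 with up to 3 matched cells, 0 against all marker-free cells, 12 and 4 with 2 or 4 rule genes, 2 after thinning, 2 without doublets, 5 without shared barcodes and shallow cells, 0 with the 10% limit, and 0 to 110 with a library left out. Member shares were 0.270% and 2.06% after thinning and 2.05% and 10.2% with 2 or more rule genes, in PyMT A and PyMT B. In sign, the Shmt1 log2 fold change turned to -6.41 after thinning. The members' sums then held only 15000 UMIs in PyMT A and 111000 in PyMT B, so a gene as rare as Shmt1 is near the floor there. The Ccl7 log2 fold change in PyMT was -1.07 without PyMT B and 4.47 without PyMT A. The cause was not tested in any of these cases.

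With no replicate block no involution, milk or interferon gene passed, and 34 mitotic, 19 replication and 2 nucleotide synthesis genes did. Without PyMT A and PyMT B in turn, 39 and 12 mitotic, 34 and 6 replication, and 7 and 1 nucleotide synthesis genes were higher. PyMT A is limited by its 25 compared cells, and a gene at 2.51 CPM there is 1 UMI. The alternatives that leave out PyMT A or PyMT B were planned, and those that leave out Neu or BRCA1-null libraries were chosen after seeing the data.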
